A study of Mus musculus with 12 samples.

Results

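Messenger RNA of the acinar pancreas was measured in 12 samples of pancreatic tumour through 34 genes, 30 of them for digestive enzymes and other acinar proteins and 4 for transcription factors of acinar cells. Members were taken by name, as probes that are not controls and whose gene name on the array is that of a member, and 32 of the 34 were found among 37074 gene names. Try10 and Spink3 had no probe under those names. The tumours came from female C57BL/6 mice aged 8 weeks that carried orthotopic KP tumours, meaning tumours grown in the pancreas itself. Mice were dosed by gavage for 14 days, with vehicle (6 samples) or with FAKi at 50 mg/kg (6 samples), a drug against focal adhesion kinase, which relays signals from cell contacts with the matrix. The study's question was how blocking this kinase alters pancreatic tumours in view of checkpoint immunotherapy. RNA was taken from tumour tissue, so any gland left in the piece was measured with it. Replicates are numbered per group, but the labels do not state that each sample came from a mouse of its own. A sample is called a tumour here, and p-values cover the spread between these 12 samples, which may in part be technical. In such a bulk sample, fewer acinar cells and less RNA per acinar cell cannot be told apart.

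Acinar cells make up most of the healthy pancreas and secrete digestive enzymes, many as inactive zymogens stored in granules. Trypsin, once formed from trypsinogen in the gut, activates the other zymogens. Transcription of these genes in the gland rests on the PTF1 complex, in which PTF1A binds DNA with a partner bHLH protein and with RBPJL, and on NR5A2 and BHLHA15 (MIST1). Acinar cells caught at the edge of a tumour, or acinar cells that turn duct-like, are a known part of pancreatic tumour tissue.

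Prss2, Try4 and Try5 had the smallest p of all members, and the trypsinogen probes are shown because several of these genes are near copies. The probes of Prss3, Try5 and Try4 on mouse chromosome 6 (build mm9) lie at chr6:41323803-41323862, chr6:41261247-41261306 and chr6:41255472-41255531, and cover the end of the coding sequence. Their bases up to and including the stop codon are printed 5′ to 3′, with capitals at the 4 positions where the probes differ, to show how alike the targets are.
Prss3: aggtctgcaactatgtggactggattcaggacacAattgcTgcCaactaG
Try5: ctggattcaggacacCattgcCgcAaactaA
Try4: CattgcTgcAaactaA
Prss2: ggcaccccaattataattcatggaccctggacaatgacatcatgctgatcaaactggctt
The last line is the whole Prss2 probe of 60 bases, at chr6:41473937-41473996 (mm9), which reads another stretch. It shares no run longer than 6 bases with the other probes, but probes of different stretches cannot show cross-reading this way. Whether the Prss2 probe also reads the transcripts of Try4, Try5 or Prss3 was not tested. Over whole probes, Try4 and Try5 align over 45 bases with 43 matching and a longest shared run of 31, so each may also read the other's transcript. Try5 and Prss3 align over 41 bases with 32 matching. Prss3 has a second, brighter probe, of another transcript, that holds a run of 32 bases found around the RefSeq start of Prss3, 9 before it and 23 after it.

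Promoters of Prss2, Try4 and Prss3 are shown next, with matches to the PTF1 elements in capitals. Sequences are from RefSeq on GRCm38.p6, as the 150 bases before the start, in the direction of the gene.
Prss2 promoter, chr6:41521626-41521775, strand +: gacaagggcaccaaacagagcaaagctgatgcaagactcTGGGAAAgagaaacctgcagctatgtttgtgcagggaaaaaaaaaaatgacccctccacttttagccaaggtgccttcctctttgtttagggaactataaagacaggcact
Try4 promoter, chr6:41302122-41302271, strand +: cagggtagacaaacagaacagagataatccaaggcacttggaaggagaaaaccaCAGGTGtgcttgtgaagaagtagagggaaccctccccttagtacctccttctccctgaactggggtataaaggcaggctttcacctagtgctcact
Prss3 promoter, chr6:41377614-41377763, strand -: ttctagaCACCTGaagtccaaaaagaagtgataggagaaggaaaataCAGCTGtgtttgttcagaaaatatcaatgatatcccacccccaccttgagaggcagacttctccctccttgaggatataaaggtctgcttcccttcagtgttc
The letters searched on both strands were the E-boxes CACCTG and CAGCTG and the box TTTCCCA, which do not overlap each other. Prss2 holds a TTTCCCA match on the opposite strand, Try4 a CACCTG match on the opposite strand, and Prss3 both E-boxes. RefSeq promoters were at hand for 28 of the 34 members, as 31 starts. Those of Clps, Ctrc, Try5, Try10, Zg16 and Spink3 were not used here. Within 250 bases before the start, CACCTG stood in 16 of 31 member promoters (51.6%), beside 17.2% of all 32851 promoters. The other E-box, CAGCTG, stood in 5 (16.1%, beside 13% of all), and TTTCCCA in 5 (16.1%, beside 6.82%). An E-box and TTTCCCA stood together in 4, those of Prss2, Cel, Cela2a and Ctrb1 (12.9%, beside 1.88%). A match describes letters and is not a binding site.

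Arrays gave signals well above background for 66.6% to 76.1% of their spots. Correlations between arrays, across genes that passed the filter on dim probes, ran from 0.885 to 0.976. Vehicle 6 stood apart, with a 75th percentile of log2 signal of 11.82 while the other 11 arrays lay between 12.82 and 13.88. The arrays lay on 5 slides: vehicle 3, vehicle 5 and FAKi 5 shared slide 1, vehicle 2, vehicle 6 and FAKi 1 shared slide 4, and no other slide held both groups. All levels are log2 signal minus the 75th percentile of the same array, so 0 is that percentile. Markers of the tumour tissue passed the filter in full, with 15 of 15 ductal, 6 of 6 fibroblast and 5 of 5 leukocyte genes.

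The label of acinar cells was checked against its defining genes. Of the 32 members on the array, 26 passed the filter (well above background on at least 6 of 12 arrays), beside 27376 of all 37074 gene names. Lists of other tissues passed too, with 8 of 8 skeletal muscle, 9 of 9 adipocyte and 4 of 5 salivary gland genes. Passing the filter is therefore not particular to the acinar genes. Of the members, 18 were well above background on all 12 arrays, and the share of all genes that were so was not computed. Where a count of arrays says above background, it is short for well above it. Ptf1a, the founding factor of the acinar lineage, was well above background on 0 of 12 arrays. Cuzd1, a zymogen granule protein, was above it on 0, Pnliprp2, a lipase-related protein, on 1, and Bhlha15, the factor that scales up secretion, on 2. Gp2, the main membrane protein of zymogen granules, was above background on 4 arrays, and Dnase1, a secreted nuclease, on 5. Rbpjl, the PTF1 partner, was well above background on 12 of 12 arrays, so the defining genes were split. A dim probe gives only an upper bound, and the members are described gene by gene.

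No member differed between FAKi and vehicle tumours after adjustment. At a limma adjusted p of 0.05, 0 of 26 members were called, and so were 0.0% of the 27376 genes tested. At an unadjusted p under 0.05, 2 of 26 members were reached, Prss2 and Try5, both higher in FAKi tumours, where all genes give 4.79% in either direction and 2.71% on the higher side. Levels were higher in FAKi tumours on average for 22 of 26 members, beside 60.5% of all genes. The median difference was 0.36 log2 over the members and 0.08 over all genes tested. The groups overlapped for all 26, while 0.238% of all genes had groups apart. With slide as a fixed block the median difference was 0.03, beside −0.03 over all genes, and 11 of 26 members lay below 0. Within slide 1 the median was 0.75 (21 of 26 members above 0) and within slide 4 it was −0.38, where 21 of 26 members lay below 0. Each of those slides sets 1 FAKi tumour against 2 vehicle tumours, with no test. Without vehicle 6 the median was 0.52. Medians of all genes within these slides and without vehicle 6 are not given here. Vehicle 6, on slide 4, was the highest tumour for 35.8% of all genes and the lowest for 10.7%. Vehicle 3, on slide 1, was the highest for 2.74% and the lowest for 17.3%. The part of array-wide shifts in the slide values was not tested.

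**Figure D1:**
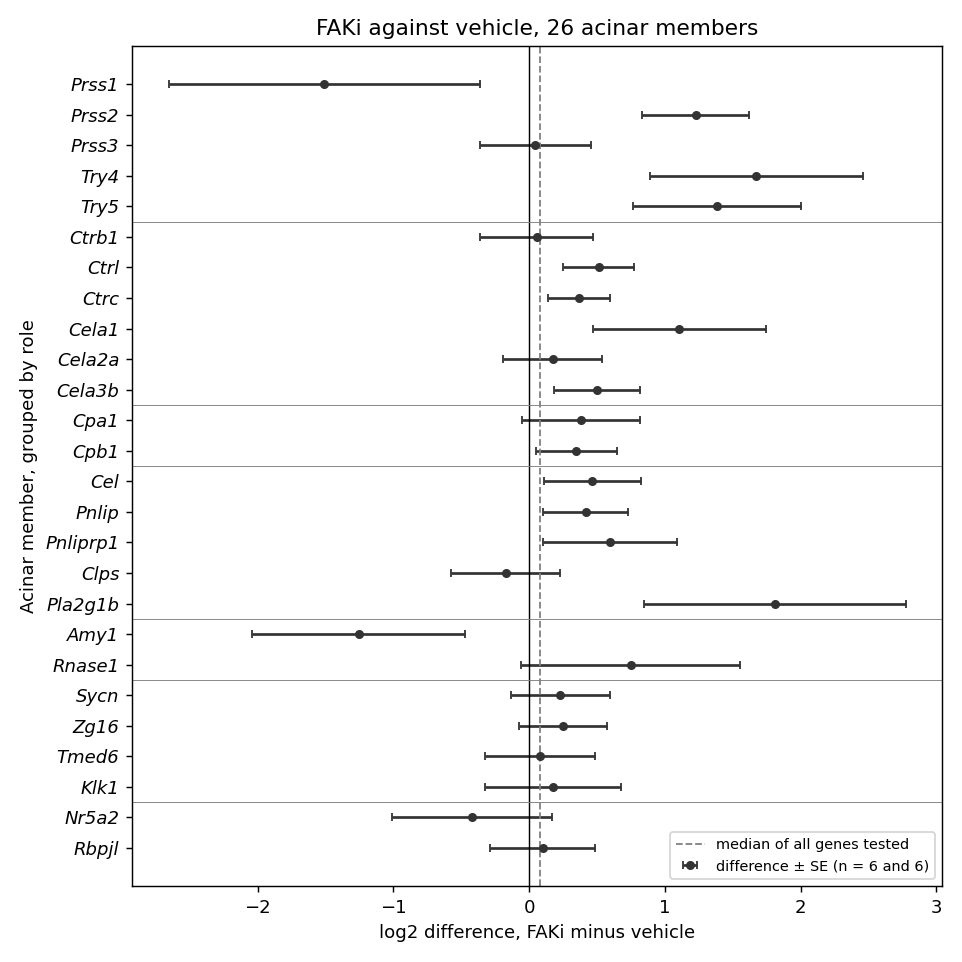
Log2 difference (FAKi minus vehicle, horizontal axis) of the 26 members that passed the filter, grouped by role (vertical axis); points are limma estimates, bars are 1 standard error, and the dashed line is the median of all genes tested. Most points lie right of 0, Prss2, Try4, Try5 and Pla2g1b furthest, with Prss1 and Amy1 furthest to the left, and none passed adjustment.

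Among the trypsinogens, precursors of trypsin, Prss2, Try4 and Try5 shared 1 tumour that stood high, while Prss1 and the brightest Prss3 probe did not. Prss2 read −3.95 (lowest), −3.36 (median) and −2.94 (highest) in vehicle tumours and −3.07, −2.64 and −0.50 in FAKi tumours. FAKi 1 was the high tumour, FAKi 2 followed at −1.77, and FAKi 6 lay within the vehicle range. The log2 difference was 1.23 (SE 0.39, limma unadjusted p = 0.0077, adjusted p = 0.918). All 6 FAKi tumours exceeded the mean of the vehicle group.
Try4 read −6.47, −4.22 and −2.65 in vehicle and −4.59, −2.86 and 0.41 in FAKi tumours, again highest in FAKi 1 and lowest in vehicle 4, the 1 array on which it was not well above background. Its difference was 1.67 (SE 0.79, limma unadjusted p = 0.052, adjusted p = 0.999). Try5 read −4.02, −2.15 and −0.94 in vehicle and −2.05, −1.06 and 1.44 in FAKi tumours, with the same lowest and highest tumours as Try4. Its difference was 1.38 (SE 0.62, limma unadjusted p = 0.043, adjusted p = 0.999). Since the Try4 and Try5 probes share a run of 31 bases, each may read the other's transcript, which was not tested.

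The sizes were smaller without FAKi 1. Without it the differences fell to 0.88 for Prss2, 1.08 for Try4 and 0.94 for Try5 (limma adjusted p = 0.489, 0.866 and 0.854). Slide 4, which holds FAKi 1, gave 3.06, 4.63 and 3.27, whereas slide 1 gave 0.60, −0.82 and −0.26. With slide as a fixed block the values were 1.83, 1.91 and 1.51.

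Prss3 depended on the probe. The brightest one, which stands for the gene here, read −1.82, −0.70 and 0.94 in vehicle and −1.34, −0.65 and 0.33 in FAKi tumours, highest in vehicle 6 and lowest in vehicle 3. Its difference was 0.04 (SE 0.41). The probe printed above, of the RefSeq transcript, read −5.11, −3.41 and −2.83 in vehicle and −3.31, −2.54 and 0.14 in FAKi tumours, highest in FAKi 1, with a difference of 1.67 (SE 0.56, limma adjusted p = 0.966 over probes).

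Prss1, another trypsinogen, was the member with the widest spread, 2.32 log2 (SD over 12 tumours). It read −8.36, −4.50 and −2.21 in vehicle and −8.65, −6.54 and −2.79 in FAKi tumours, and was well above background on 5 vehicle and 3 FAKi arrays. Vehicle 6, FAKi 6, vehicle 2 and vehicle 4 were high, and FAKi 1, highest for Prss2, was at −7.24. The difference was −1.51 (SE 1.15), and −0.99 without vehicle 6. It was 2.06 within slide 1 and −4.56 within slide 4.

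**Figure D2:**
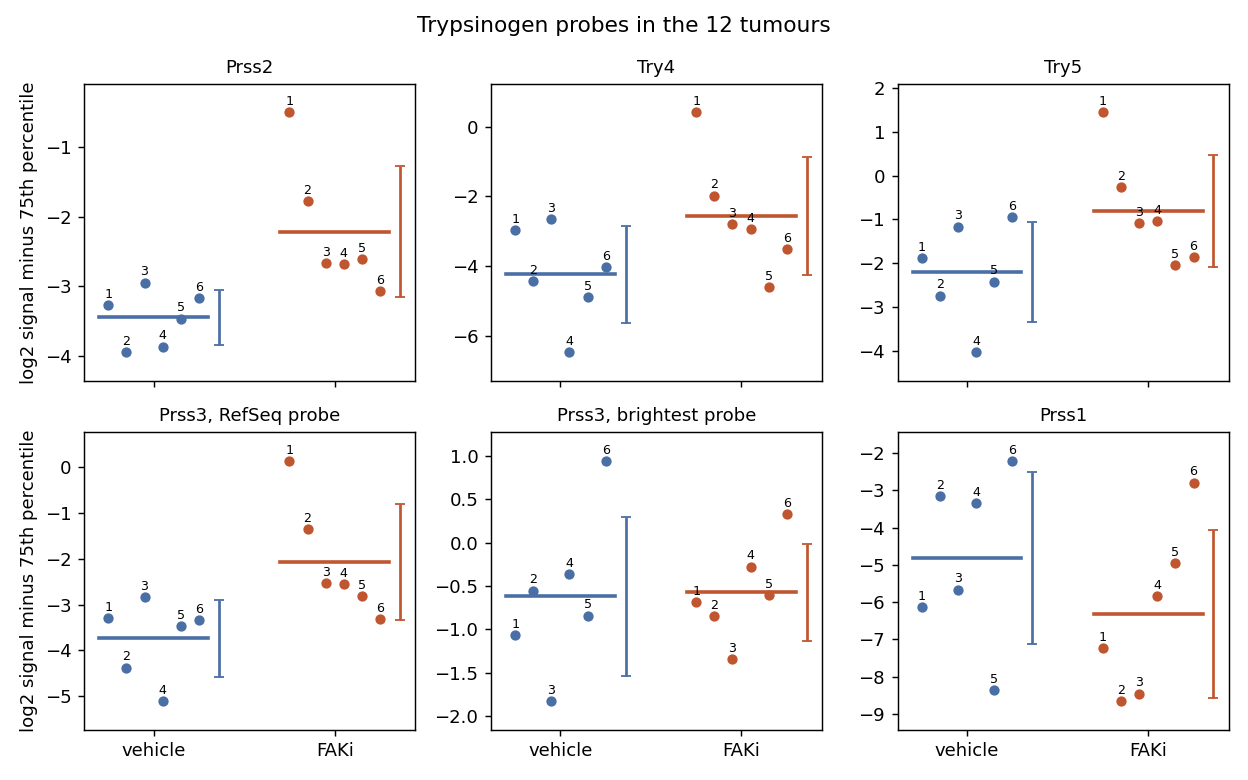
Log2 signal minus the array's 75th percentile (vertical axes, which differ between panels) for 6 trypsinogen probes in vehicle and FAKi tumours; points are single tumours labelled by replicate number, horizontal lines are means and bars are SD (n = 6 each). FAKi 1 is the highest tumour for Prss2, Try4, Try5 and the RefSeq probe of Prss3, but not for the brightest Prss3 probe or Prss1.

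The order of tumours was shared by Prss2, Try4, Try5 and the RefSeq probe of Prss3, as chosen for a closer look after the values were seen. Probes were compared only with probes, so the part of cross-reading between these transcripts in the correlations was not tested. Over the 12 tumours Try5 followed Prss2 with r = 0.91 (permutation p = 7e-05) and rho = 0.77 (permutation p = 0.0054). For Try4, r was 0.87 (permutation p = 0.00032) and rho 0.73 (permutation p = 0.0103). Adjusted over all 27262 other genes the p of both was 0.9999, and 0 of 25 members passed, beside 0.0% of all genes. The correlation with Prss2 was above 0 for 13 of 25 members, beside 47.2% of all genes. Unadjusted, 2 of 25 members and 1.09% of all genes were under 0.05. A lone gene cannot reach an adjusted p below 0.273 with 100000 resamples, so this adjustment cannot single out 1 pair.
For the RefSeq probe of Prss3, r was 0.98 and rho 0.95 (permutation p = 1e-05, the smallest possible, and 3e-05, adjusted p = 0.403 over 40322 probes). Without FAKi 1 and FAKi 2, the tumours farthest from the Prss2 median, r was 0.77 for Try5, 0.65 for Try4 and 0.93 for Prss3. Within vehicle tumours alone r was 0.87, 0.77 and 0.92, and within FAKi tumours 0.95, 0.91 and 0.99. On slide-centred values of the 11 tumours that share a slide with another, r was 0.90, 0.84 and 0.98. Prss1 gave r = −0.51 (permutation p = 0.083) and rho = −0.49 (permutation p = 0.11), and r = −0.37 without FAKi 1 and FAKi 2. It was not well above background in FAKi 1, FAKi 2, FAKi 3 and vehicle 5, so its values in the tumours highest for Prss2 are floor values. The probe of Gm5771, a trypsinogen-like gene outside the members that matches 45 of 48 aligned bases of the RefSeq Prss3 probe, gave r = 0.35 (permutation p = 0.255) and rho = 0.34 (permutation p = 0.278). Gm10334, another trypsinogen-like gene outside the members, gave r = −0.30 (permutation p = 0.348) and rho = −0.47 (permutation p = 0.128). The brightest Prss3 probe gave r = −0.15 (permutation p = 0.638) and rho = −0.26 (permutation p = 0.420).

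Chymotrypsins and elastases, proteases with other cutting sites, were measured in full, with 6 of 6 members passing the filter and 6 of 6 higher on average in FAKi tumours, though with slide as a block Ctrb1 (−0.20) and Cela2a (−0.15) lay below 0. Cela1, an elastase, had the widest spread of this group. Its brightest probe read −1.94, 0.48 and 2.32 in vehicle and 0.58, 1.46 and 2.70 in FAKi tumours. Vehicle 5 and vehicle 6 were the low tumours, and the groups overlapped. The difference was 1.11 (SE 0.64), or 0.65 without vehicle 5, and a second probe, of the RefSeq transcript, gave 0.42 (SE 0.52).
Ctrc, a chymotrypsin that also degrades trypsinogen, had the narrowest spread of all members, 0.37 (SD over 12 tumours). It read −5.17, −5.06 and −4.05 in vehicle and −4.67, −4.61 and −4.23 in FAKi tumours. Vehicle 6 was the only vehicle tumour above the lowest FAKi tumour. The difference was 0.37 (SE 0.23), 0.54 without vehicle 6, and 0.33 by a second probe. Cela3b (0.50, range −4.92 to −2.83 over 12 tumours), Ctrl (0.51, −1.79 to −0.49), Cela2a (0.17, −2.73 to −0.10) and Ctrb1 (0.06, −0.48 to 2.20) completed the group, and Cela2a and Ctrb1 were highest in vehicle 6.

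The carboxypeptidases cut amino acids from the ends of peptides. Cpa1 (chr6:30595240-30595299, mm9) read −4.41, −3.25 and −2.57 in vehicle and −4.40, −2.82 and −1.61 in FAKi tumours. FAKi 4 was high, while vehicle 6 and FAKi 1 were low. Its difference was 0.38 (SE 0.44). Cpb1 read −6.46, −5.36 and −4.37 in vehicle and −5.41, −4.99 and −4.80 in FAKi tumours, with vehicle 6 high and vehicle 4 low. Its difference was 0.35 (SE 0.30), and both members lay below 0 with slide as a block, at −0.20 and −0.27.

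Among the lipid-digesting members, 5 of 6 passed the filter. Pla2g1b, a secreted phospholipase, had the largest difference of all members at 1.81 (SE 0.96, limma unadjusted p = 0.082, adjusted p = 0.999). It read −8.29, −3.83 and −1.42 in vehicle and −4.49, −2.04 and −0.87 in FAKi tumours. Vehicle 5 was not well above background and lay far below the rest, and without it the difference was 0.98. Within slide 1, which holds vehicle 5, the value was 4.66, and within slide 4 it was −0.05.
Pnlip, the main pancreatic lipase, read −5.86, −5.47 and −3.87 in vehicle and −5.30, −4.83 and −4.52 in FAKi tumours, with vehicle 6 high. The difference was 0.42 (SE 0.31). A second Pnlip probe, of another transcript and above background on 7 arrays, spanned −8.40 to −2.37 and was high in FAKi 5, vehicle 1 and FAKi 1, unlike the first. Cel, a bile salt-activated lipase (0.47, range −2.09 to −0.03), Pnliprp1 (0.59, −8.28 to −4.51) and Clps, the colipase that holds lipase at fat droplets (−0.17, −1.95 to 0.10), completed the group. Vehicle 5 was again the low tumour for Pnliprp1, and without it the difference was 0.12.

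Amylase split the tumours in another way. Amy1, the amylase gene best known from the salivary gland, whose product digests starch, read −6.14, −4.71 and −2.58 in vehicle and −7.89, −5.85 and −3.78 in FAKi tumours. Vehicle 4, vehicle 3, vehicle 5, FAKi 3 and FAKi 1 were the 5 high tumours, in both groups, and FAKi 6 was the lowest. The difference was −1.26 (SE 0.79, limma adjusted p = 0.999), −3.53 within slide 1 and 1.41 within slide 4. It was −0.86 without vehicle 4 and −0.84 without FAKi 6. A second Amy1 probe, above background on 5 vehicle and 2 FAKi arrays, gave −2.78 (SE 1.13) with the same 5 tumours highest. The probes share no run longer than 6 bases, and followed each other with r = 0.88 (permutation p = 0.00042) and rho = 0.75 (permutation p = 0.0074), or r = 0.80 without vehicle 3 and vehicle 4. The second Amy1 probe also aligns with a probe of Amy2a5, a pancreatic amylase gene, over 46 bases with 39 matching and a longest shared run of 23. It may therefore read that transcript too, which was not tested.
No other member followed Amy1, with r above 0 for 0 of 25 members, beside 31.6% of all genes, and 0 of 25 called (0.0% of all genes). At an unadjusted p under 0.05 stood 2 of 25, beside 6.1% of all genes, namely Cela3b (r = −0.69) and Pnlip (r = −0.60). The choice of Amy1 as a reference was made after its values were seen. Markers of adipocytes moved with it. The summed level of the 9 adipocyte genes, all of which passed the filter, was 5.94 in vehicle 3, 6.29 in vehicle 4, 4.21 in vehicle 5, 4.64 in FAKi 3 and 3.39 in FAKi 1. Among the other 7 tumours it ran from 1.98 in vehicle 1 to 4.07 in FAKi 5, and between groups from 1.98 to 6.29 in vehicle and from 2.29 to 4.64 in FAKi tumours. Of the 9, Adipoq (r = 0.82, rho = 0.73), Pck1 (r = 0.82, rho = 0.92), Retn (r = 0.80, rho = 0.69), Cfd (r = 0.76, rho = 0.69), Plin1 (r = 0.74, rho = 0.73) and Fabp4 (r = 0.70, rho = 0.73) had an unadjusted permutation p of at most 0.0128 for r and 0.0168 for rho, and adjusted over all genes the p of r was 0.655 for each. Cidec gave r = 0.54 (rho = 0.41), Lipe −0.10 (rho = 0.06) and Lep −0.32 (rho = −0.31), with unadjusted permutation p of 0.0712 and above. Lipe was read from its brightest probe, which is not of the RefSeq transcript. Its RefSeq probe was highest in vehicle 4 (−0.36) and vehicle 3 (−0.63), the highest tumours for Amy1, and a further probe in FAKi 6 (−3.46), the lowest. The r of those Lipe probes with Amy1 was not computed. Without vehicle 3 and vehicle 4, r was 0.68 for Adipoq, 0.65 for Pck1, 0.64 for Retn, 0.59 for Cfd, 0.49 for Plin1 and 0.45 for Fabp4. Within vehicle tumours r was between 0.84 and 0.95 for these genes. Within FAKi tumours it was 0.92 for Pck1 and between 0.45 and 0.63 for the rest of them. Cidec, Lipe and Lep gave 0.85, 0.37 and −0.11 within vehicle and −0.04, −0.55 and −0.88 within FAKi tumours. Salivary gland markers lay between −2.41 and −0.32 as a summed level of 4 genes, lowest in vehicle 3. The part of fat tissue in the Amy1 values was not tested.

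**Figure D3:**
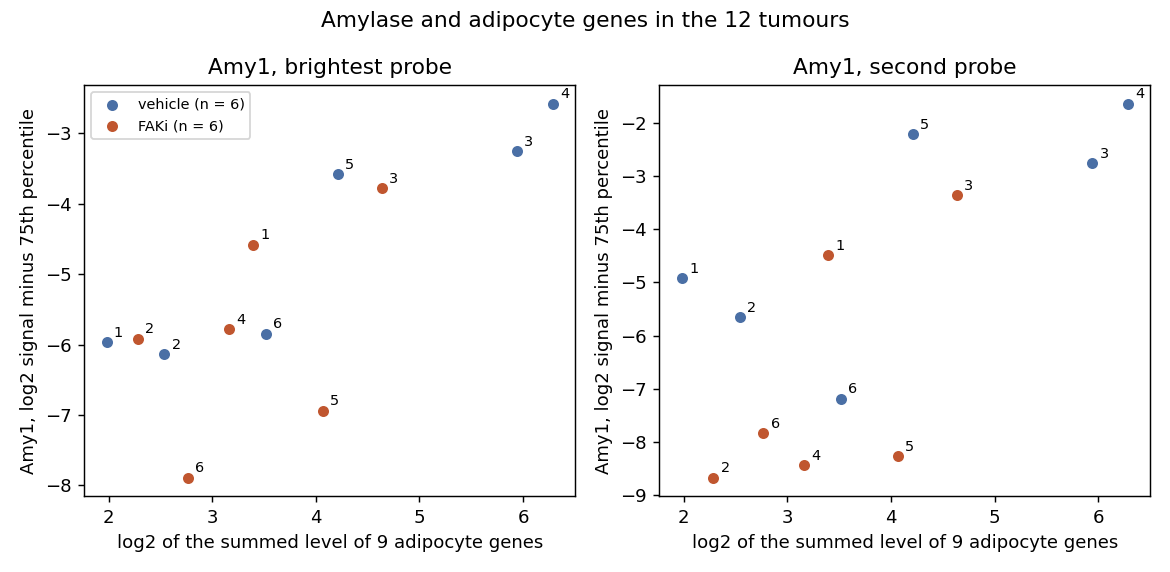
Amy1 level (vertical axes, log2 signal minus the array's 75th percentile) by its brightest and its second probe against the log2 of the summed level of 9 adipocyte genes (horizontal axes); points are tumours labelled by replicate number. Vehicle 3, vehicle 4, vehicle 5 and FAKi 3 lie at the upper right for both probes, while FAKi 5 is low for Amy1 at an adipocyte level of 4.07.

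Rnase1, a secreted ribonuclease, was dim, above background on 3 vehicle and 4 FAKi arrays. It read −8.82, −6.70 and −3.55 in vehicle and −6.76, −6.00 and −4.04 in FAKi tumours, highest in vehicle 6 and FAKi 6. Its difference was 0.75 (SE 0.81), and −0.01 with normexp background correction.

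Granule proteins and the remaining secreted members gave 4 of 6 on the array that passed the filter. Klk1, tissue kallikrein, had the widest spread. It read −5.44, −4.23 and −3.69 in vehicle and −5.86, −4.26 and −2.41 in FAKi tumours, with FAKi 5 high and FAKi 3 low. The difference was 0.17 (SE 0.50), and −0.18 without FAKi 5. The kallikreins are a large family, and cross-reading between them was not checked.
Zg16, a lectin of the granule membrane, had the narrowest spread, at −4.79, −4.14 and −2.76 in vehicle and −4.27, −3.80 and −3.10 in FAKi tumours. Its difference was 0.25 (SE 0.32). Sycn, a granule protein (0.23, range −3.26 to −0.88), and Tmed6, a protein of the early secretory pathway (0.08, −5.60 to −3.49), were both highest in vehicle 6. The sign of Tmed6 turned with quantile normalisation (−0.048), and its second probe gave −1.11. Gp2, not well above background on 8 arrays, reached −2.15 in FAKi 5 and −3.55 in FAKi 6, with −5.59 in vehicle 1 and −5.73 in vehicle 4. In the other 8 tumours it was between −8.78 and −7.17.

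The transcription factors did not share a pattern. Ptf1a lay between −9.25 and −7.21 in vehicle and between −8.78 and −8.17 in FAKi tumours, never well above background. Bhlha15 was above it only in vehicle 2 (−5.60) and vehicle 4 (−6.13), and lay between −8.78 and −6.72 in FAKi tumours, on 0 of 6 arrays above background. Nr5a2, a nuclear receptor of pancreas and gut epithelium, read −7.18, −5.14 and −3.87 in vehicle and −7.53, −5.48 and −4.30 in FAKi tumours. Vehicle 2 was its highest tumour, and vehicle 5 and FAKi 5 were low. Its difference was −0.42 (SE 0.59).
Rbpjl, the acinar partner in PTF1, was well above background on 12 of 12 arrays. It read −4.41, −3.30 and −1.81 in vehicle and −3.34, −3.23 and −2.35 in FAKi tumours, highest in vehicle 6 and FAKi 6. The difference was 0.10 (SE 0.39), and a second probe gave −0.35 (SE 0.65).

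**Figure D4:**
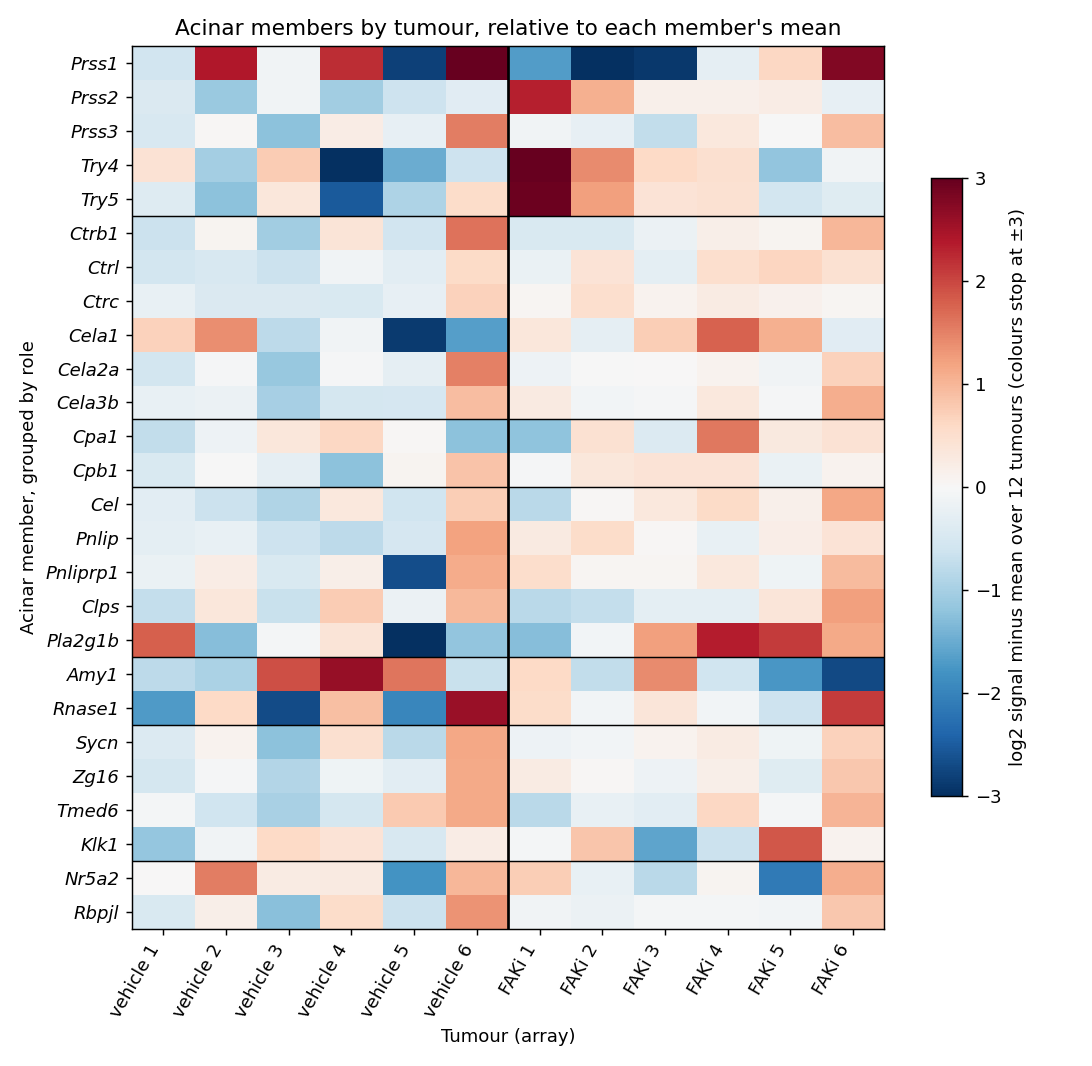
Level of the 26 members (rows, grouped by role) in each of the 12 tumours (columns, vehicle left and FAKi right of the line), as log2 signal minus the member's own mean; red is above it and blue below, and colours stop at ±3. Vehicle 6 is red for many rows, FAKi 1 is deepest red for Prss2, Try4 and Try5, and Amy1 is most red in vehicle 3, vehicle 4, vehicle 5 and FAKi 3.

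A few tumours were repeatedly the highest or the lowest. Vehicle 6 was the highest of the 12 tumours for 13 of 26 members, and for 35.8% of all genes. Vehicle 3 was the lowest for 11 of 26, beside 17.3%. FAKi 1 was the highest for 3 of 26, beside 2.2%, and those were Prss2, Try4 and Try5. The array of vehicle 6 was also the one of lowest overall signal. The dimmest signal well above background lay at −4.95 on it, and between −6.96 and −5.85 on the other 11 arrays, so the floor for dim members was higher there. Before scaling to the 75th percentile the spread over tumours was smaller than after it for 15 of 26 members (57.69%, beside 42.9% of all genes). The median SD over tumours of a member was 0.54 before scaling and 0.73 after it, while over all genes it was 0.63 and 0.59. The part of array signal in the height of vehicle 6 was not tested.

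Whether the members ranked the tumours alike was read against Cpa1. Of 25 other members, 0 followed Cpa1 at an adjusted permutation p of 0.05, beside 0.0% of 27262 genes, and 0 had an unadjusted p under 0.05, beside 3.76%. The correlation was above 0 for 7 of 25 (43.5% of all genes), with a median r of −0.14. It ran from −0.43 for Pnlip (rho −0.32, permutation p = 0.166 and 0.309) to 0.34 for Pla2g1b (rho 0.37, permutation p = 0.276 and 0.237). Without FAKi 4 and vehicle 6 these were −0.14 and 0.09. Without vehicle 6 alone, 19 of 25 were above 0 and the median was 0.16, with 0 called. Cpb1, the other carboxypeptidase, gave r = −0.19 (rho −0.13, permutation p = 0.555 and 0.703). Within vehicle tumours alone r was −0.88 for Pnlip, −0.86 for Cela3b, −0.83 for Ctrc and 0.83 for Amy1. Their unadjusted exact permutation p were 0.0056, 0.021, 0.021 and 0.043, and no other member was under 0.05 in either group. Within FAKi tumours these r were −0.36, 0.14, 0.44 and −0.51. The share of all genes within groups was not computed.
Of the 10 genes outside the members with the highest r with Cpa1, 9 are given, as a description over 12 tumours: Nabp2 (0.93), Vstm4 (0.90), Psrc1 (0.88), Nutf2 (0.86), Mrps33 (0.85), Cenpa (0.84), Ddt (0.83), Ormdl2 (0.82) and Trmt44 (0.81). None of the 9 is in the acinar lists, and they include Cenpa and Psrc1, genes of the centromere and the mitotic spindle.
With Pnlip as the reference the picture differed. Then 22 of 25 members had r above 0, beside 67.1% of all genes, 12 of 25 had an unadjusted p under 0.05, beside 24.9%, and 1 of 25 was called, beside 3.08%. That member was Ctrc (r = 0.88, permutation adjusted p = 0.0366). The call ended without vehicle 6 (smallest adjusted permutation p of a member 0.360, and 0.0% of all genes called), where r was 0.81. Within vehicle tumours r was 0.95, within FAKi tumours 0.26, and on slide-centred values of 11 tumours 0.95.

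**Figure D5:**
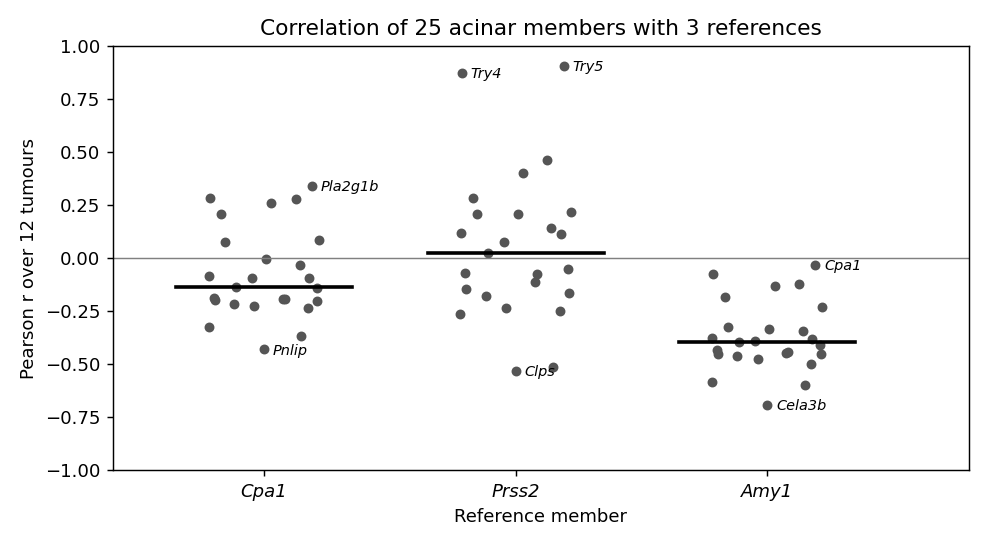
Pearson r (vertical axis) of each of the 25 other members with Cpa1, Prss2 or Amy1 over 12 tumours; points are members and bars their median. Members lie on both sides of 0 for Cpa1 and Prss2, with Try4 and Try5 apart at 0.87 and 0.91 for Prss2, and all 25 lie below 0 for Amy1.

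Other genes of the exocrine pancreas gave no call either. Of 20 further acinar genes that passed, 12 lay above 0 and 8 below, 0 were called and 1 had an unadjusted p under 0.05. Pdia2, a folding enzyme of the pancreas, gave 0.83 (SE 0.33), and Gatm, an enzyme of creatine synthesis, 0.57 (SE 0.28). Of 12 further regulators 8 lay above 0, 0 were called, and Tcf3 (0.21) and Foxa3 (0.50) had the smallest p. Ductal genes split 5 above and 10 below, with Car2 at −1.62 (SE 0.63) and Cftr at −1.23 (SE 0.48). Tff2, also ductal, went the other way at 1.39. A limma unadjusted p under 0.05 was reached by 3 of the 15 ductal genes, beside 4.79% of all genes. Islet genes split 7 and 4, with Chga at −1.50 (SE 0.68) and Pcsk1 at 1.19 (SE 0.55). No gene of these lists passed adjustment (limma adjusted p = 0.999 for the 2 genes of smallest p in each list).
Markers of other tissues had medians of −0.88 for adipocytes (8 of 9 below 0, Adipoq at −2.98 and Cfd at −2.03), 0.21 for skeletal muscle (5 of 8 above, Mb at −1.74 and Myh4 at 0.23) and 0.18 for gut epithelium (4 of 6 above, Fabp2 at 0.61 and Lgals4 at −0.29). They were 0.21 for B cells (4 of 6 above, Cd79b at −0.66 and Cd79a at 0.65), 0.03 for leukocytes (3 of 5 above, Csf1r at −0.35 and Ptprc at −0.14), −0.08 for fibroblasts (6 of 6 below, Lum at −0.35 and Acta2 at −0.10) and 0.27 for salivary gland (4 of 4 above, Muc19 at 0.44 and Smgc at 0.22), with 0 called in each. The brightest Myh4 probe, used here, ran only from −2.63 in vehicle 3 to −0.53 in vehicle 6. Another Myh4 probe ran from −8.745 in vehicle 3 to 2.26 in FAKi 3, so the Myh4 value rests on the choice of probe. In FAKi 1, high for the trypsinogens, the summed levels were 3.39 for adipocytes (range over 12 tumours 1.98 to 6.29), 3.62 for muscle (0.46 to 7.39) and 4.97 for gut epithelium (4.58 to 6.04). The part of other tissues in the member values was not tested.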

How the data were processed

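The intensity of each spot on one-colour (red, Cy5) arrays was deposited by the authors as scanner output of Feature Extraction 11.5.1.1, per the file headers. The authors' deposited table of log2 values, made with limma per the submitters' processing notes, served as an alternative, and how it was normalised is not stated in the sources used. Each array held 59305 non-control spots for 56605 probes; 71 to 156 spots marked as outliers were left out and 0 were saturated. Log2 processed signal minus the array's 75th percentile was averaged over a probe's spots. Probes well above background on at least 6 of 12 arrays were kept (40460 probes, 27376 genes), and the brightest probe stands for a gene. Groups were compared by limma 3.58.1 (R 4.3.3) with Benjamini-Hochberg adjustment over all genes and no covariate, at 0.05. Correlations used 100000 resamples (Python 3.11.15, numpy 2.4.6). Both procedures were tested on simulated data. The number of arrays limits the precision.

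Probe positions are those of the array design on mm9. Members, lists and tests were chosen with earlier results of these data known. Genes named in full were, per role, the members of widest and narrowest spread, the 4 transcription factors and the 3 members of smallest p, plus 2 genes of smallest p per further list and the 10 genes nearest to Cpa1 (unnamed transcripts left out), 1 of which is not reported here. Alternatives covered normalisation, background correction, dim-probe filters, probe averaging, slides, a replicate block, the reference gene, and leaving out each array. Added later were Prss2 and Amy1 as references, correlations by single probe, Pnlip without vehicle 6, and leaving out vehicle 6 with FAKi 6.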

Additional observations from a re-analysis of the deposited data

Results flagged for a closer look

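Within the groups of 6 tumours, 5 of 52 sets of values (26 members in 2 groups) had 1 tumour set apart from the rest by more than the 95% limit of Dixon's test, where chance alone marks about 1 in 20. Vehicle 6 stood above the other vehicle tumours for Ctrc (−4.05) and Pnlip (−3.87). FAKi 6 stood above the other FAKi tumours for Cela2a (−0.92), Cela3b (−2.83) and Rbpjl (−2.35). The share of all genes set apart in this way is not given here, so the count cannot be read as particular to the members. Of all genes, 35.8% were highest in vehicle 6 and 10.8% in FAKi 6.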

How the results depend on the processing

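The count of called members was 0 under all 23 alternatives that gave a test, with the smallest adjusted p of a member between 0.230 (without vehicle 6) and 1. Without FAKi 1, 3 genes of the whole array were called and 0 members. The median difference of the members was 0.28 to 0.52 with each array left out, and 0.15 with normexp. It was 0.23 with quantile normalisation and with the authors' deposited table. Within slide 4 it moved to −0.38, and the part of array-wide shifts in that value was not tested. The count that followed Cpa1 was 0 under its alternatives except with Pnlip as reference (1). The labels do not say whether the replicate numbers pair the tumours. Correlations between same-numbered tumours were −0.12 to 0.17 for replicates 1 to 5 and 0.48 for replicate 6, which cannot settle it. The replicate block left 0 members called and a median of 0.36.

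Signs turned for single members. Tmed6 read −0.048 with quantile normalisation, −0.047 with the authors' deposited table, and −0.51 with the mean of its probes and with slide as a block. Normexp gave −0.084 for Cpb1, −0.011 for Rnase1 and −0.013 for Rbpjl, and the mean of its probes −0.12 for Rbpjl. Slide as a block gave −0.079 for Prss3, −0.20 for Ctrb1, −0.15 for Cela2a, −0.20 for Cpa1, −0.27 for Cpb1 and −0.0345 for Zg16. The cause was not tested. With single arrays left out, 19 of 26 members kept their sign, while Prss3 ranged from −0.20 to 0.36, Ctrb1 from −0.15 to 0.39, Cela2a from −0.036 to 0.49, Clps from −0.44 to 0.0036, Tmed6 from −0.11 to 0.31, Klk1 from −0.18 to 0.51 and Rbpjl from −0.14 to 0.38.

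Dim probes limit Prss1, Rnase1, Amy1 and Nr5a2, which were not well above background on several arrays. With the filter raised to all 12 arrays, 18 members were left. Slide-centred correlations leave out FAKi 6, alone on its slide.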

Other observations

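Genes nearest to the other references were listed after the values were seen, as a description over 12 tumours. Nearest to Amy1 were Cdo1 (r = 0.93), Gstk1 (0.91), Dusp22 (0.88), Endou (0.87), Plin2, a coat protein of lipid droplets (0.87), Gng10 (0.86) and Wfdc21 (0.86). Without vehicle 3 and vehicle 4 these r were between 0.78 and 0.91. Nearest to Prss2 outside the members were Dact1, Pgpep1l and Smoc2 (0.79 each), of which Smoc2, a matricellular protein, kept 0.85 without FAKi 1 and FAKi 2, where Dact1 gave 0.48 and Pgpep1l 0.61. None passed adjustment over all genes (smallest permutation adjusted p 0.545 for Amy1 and 0.9999 for Prss2).

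Pancreatic amylase genes did not give 1 order of tumours. Amy2b, well above background on 12 of 12 arrays, was highest in vehicle 6 (−4.11) and lowest in vehicle 4 (−6.09) and vehicle 3 (−6.03), with r = −0.36 to Amy1 (permutation p = 0.247) and rho = −0.46 (permutation p = 0.133), or r = 0.03 without vehicle 3 and vehicle 4. A probe of Amy2a5, which did not pass the filter, was highest in vehicle 4 (−3.37), vehicle 3 (−4.43), FAKi 3 (−4.78) and vehicle 5 (−4.90). FAKi 1 came next (−6.15), so the 5 tumours high for Amy1 were also the highest for this probe. A second Amy2a5 probe was highest in vehicle 1 (−3.55), then in FAKi 3 (−4.18), vehicle 4 (−5.305) and vehicle 3 (−5.50). The Amy2a5 probes thus shared FAKi 3, vehicle 4 and vehicle 3 as high tumours. They differed in vehicle 1 (−7.23 by the first probe) and vehicle 5 (−8.27 by the second).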
